A study of Mus musculus with 12 samples.

Results

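The genes described here are 10 markers and regulators of brown and beige fat, taken by gene symbol from the table of reads per gene: Ucp1, Dio2, Cidea, Elovl3, Fabp3, Ppargc1a, Ppargc1b, Prdm16, P2rx5 and Tmem26. They are 10 of the 54134 genes listed, and 9 of them were among the 15585 genes with enough reads to be compared between groups. Fabp3 was not. The RNA came from inguinal white adipose tissue (iWAT), the subcutaneous depot of the mouse groin, of 12 male C57BL/6J mice. Of these, 6 received an adeno-associated virus (AAV) encoding GFP and 6 received the virus encoding Notum, an extracellular enzyme that inactivates Wnt ligands. Both viruses were injected into the tail vein at 8 weeks of age at a dose of 1e+12 genome copies, and both carried a thyroxine binding globulin promoter, which drives expression in hepatocytes and not in fat. All 12 mice were fed chow and were euthanised 4 weeks later, at 12 weeks of age, after a 4 h fast. Each mouse gave 1 library.

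Brown and beige adipocytes burn fuel for heat. Noradrenaline acting on β-adrenergic receptors raises cAMP, which turns on lipolysis and, through CREB and the coactivator PGC-1α, the genes of the heat program. UCP1 then lets protons leak back across the inner mitochondrial membrane. The inguinal depot is the white depot of the mouse that forms beige cells most readily, and its brown-type transcripts are scarce in unstimulated animals. In RNA from whole tissue, fewer cells of a type and less RNA per cell cannot be told apart.

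Reads counted on genes ran from 14711113 to 21618860 per mouse. All 14 white adipocyte markers were above 0 in every mouse, with a summed level of 42901 to 98726 CPM (the usual unit of reads scaled to library size, here normalised by the TMM method). Reads of genes that mark other tissues were counted in every library. The 30 skeletal muscle genes summed to 95.5 to 1410 CPM in AAV-GFP mice and to 86.0 to 6604 CPM in AAV-Notum mice, the 16 lymphoid markers to 13.1 to 1979 and 624 to 2733 CPM, and the 12 hepatocyte markers to 309 to 6434 and 178 to 1072 CPM. No mouse had more than 4 of the 30 muscle genes or than 3 of the 12 hepatocyte genes at 0 reads, and none of the 16 lymphoid markers was at 0 in any mouse. The AAV-GFP-2011 and AAV-GFP-2014 libraries stood apart, with lymphoid sums of 20.5 and 13.1 CPM against at least 383 CPM in every other mouse. In the fat, Notum itself was at 29.3 CPM in AAV-Notum-2032 and 26.6 CPM in AAV-Notum-2041. It was at 0.46 to 0.91 CPM in the other AAV-Notum mice and at 0.06 to 0.99 CPM in the AAV-GFP mice. Since the transgene is driven in the liver, this level does not check the labels.

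Per kilobase of exon, Cidea was the most abundant of the 10 genes, with a mean of 53.0 ± 34.3 CPM per kb (SD, n = 12 mice), and its range overlapped none but that of Ucp1, whose highest level (29.0 CPM per kb) was above the lowest of Cidea (16.7 CPM per kb). P2rx5 (5.46 ± 2.39), Ucp1 (5.19 ± 8.18) and Ppargc1b (4.57 ± 1.75 CPM per kb) followed. Ppargc1a (2.68 ± 0.91), Prdm16 (1.98 ± 0.57), Elovl3 (1.37 ± 2.42), Tmem26 (1.04 ± 0.43), Dio2 (0.58 ± 0.49) and Fabp3 (0.40 ± 0.64 CPM per kb) were lower. The ranges of every neighbouring pair below Cidea overlapped. Mouse AAV-GFP-2011 had the lowest level of Cidea, P2rx5, Ucp1, Ppargc1b, Elovl3 and Dio2.

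The question was whether Notum supplied from the liver goes with a brown or beige program in this depot. P2rx5 was about 2 times as high in AAV-Notum as in AAV-GFP mice and separated the groups completely. Cidea and Ppargc1b were also higher, at unadjusted p-values under 0.05, and Ucp1 and Dio2 had larger mean differences with a wide spread between mice. Ppargc1a and Prdm16 did not differ beyond the spread between mice, and Elovl3 had a lower mean in AAV-Notum mice that rested on single libraries. With edgeR's quasi-likelihood test and Benjamini-Hochberg adjustment over all 15585 genes, 0 of the 9 tested genes had an adjusted p under 0.05, against 0.0513% of all genes (8 genes). At an unadjusted p under 0.05, 3 of the 9 were higher (P2rx5, Cidea and Ppargc1b), against 4.64% of all genes. The median log2 fold change of the 9 genes was 0.58, beside 0.00773 over all genes tested, with 7 genes higher and 2 lower. The plot of levels by mouse gives every value behind these comparisons.

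**Figure D1:**
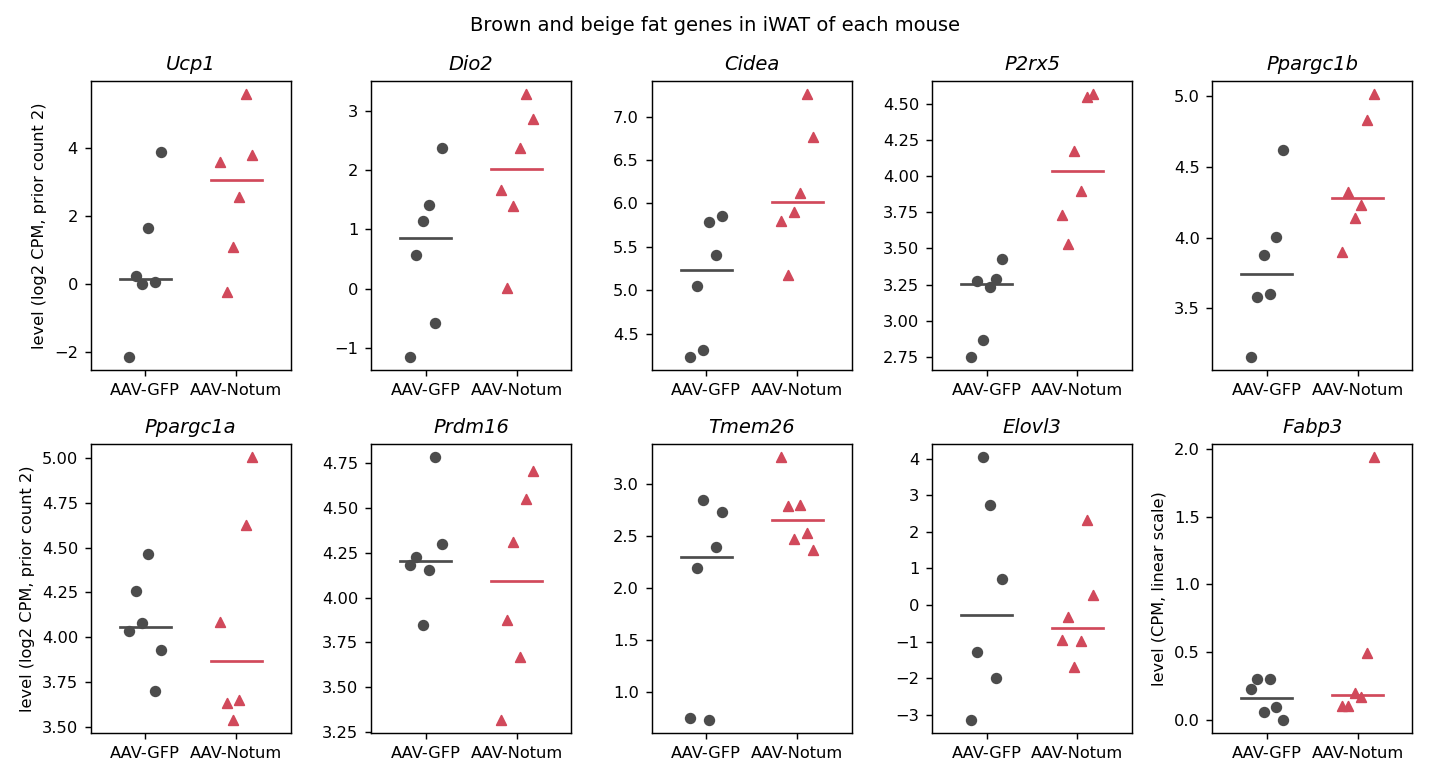
Level of each of the 10 genes in every mouse, as log2 CPM with a prior count of 2 (Fabp3 as CPM on a linear scale), with AAV-GFP mice as grey circles, AAV-Notum mice as red triangles and the line at each group's median (n = 6 mice). P2rx5 is the gene whose groups do not overlap; Ucp1, Dio2 and Elovl3 spread widely within both groups.

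Ucp1 (ENSMUSG00000031710, chromosome 8 of GRCm38, 83290352 to 83298452), the uncoupling protein that makes heat, was at 0.11 CPM in the lowest AAV-GFP mouse, at a median of 1.00 CPM and at 14.5 CPM in the highest. In AAV-Notum mice the lowest, median and highest levels were 0.73, 8.80 and 47.4 CPM. The groups overlapped: AAV-GFP-2022 had rank 2 of all mice, and AAV-Notum-2032 rank 11 with 14 reads. The log2 fold change was 1.99 (SE 1.08, edgeR adjusted p = 0.405; exact permutation p = 0.108, two-sided), and the AAV-GFP mean was exceeded in 4 of 6 AAV-Notum mice. Ucp1 rested on 2 to 770 reads per mouse and on single mice: its log2 fold change was 3.51 without AAV-GFP-2022 and 1.00 without AAV-Notum-2041.

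Dio2 (ENSMUSG00000007682, chromosome 12, 90724552 to 90738438), the deiodinase that makes active thyroid hormone inside the brown adipocyte, had a lowest, median and highest level of 0.34, 1.74 and 5.05 CPM in AAV-GFP mice and of 0.89, 4.07 and 9.60 CPM in AAV-Notum mice. The 3 highest mice of all were AAV-Notum-2041, AAV-Notum-2042 and AAV-Notum-2034, while AAV-Notum-2031 (3.05 CPM), AAV-Notum-2033 (2.52 CPM) and AAV-Notum-2032 (0.89 CPM) lay inside the AAV-GFP range. The log2 fold change of 1.24 (SE 0.65, edgeR adjusted p = 0.396, exact permutation p = 0.108) came from 6 to 156 reads per mouse.

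Ucp1 and Dio2 are textbook cAMP-responsive genes, so the bases just upstream of their start sites are shown, with those of Tmem26, a surface marker whose level did not follow theirs. RefSeq start sites were at hand for 6 of the 10 genes. Each sequence is the 250 bases before the RefSeq start on GRCm38.p6, read 5′ to 3′ on the gene's strand: Ucp1 chr8:83290098-83290347 (plus strand), Dio2 chr12:90739039-90739288 (minus strand) and Tmem26 chr10:68723496-68723745 (plus strand). The RefSeq start of Dio2 lies outside the gene model used for its position above. For Tmem26 it lies inside the gene model, which begins at 68723646, so the end of that window is within the annotated gene. Capitals mark the cAMP response element TGACGTCA, its core TGACG, which lies inside it and so overlaps it, and the TATA box TATAAA, each searched on both strands.
Ucp1: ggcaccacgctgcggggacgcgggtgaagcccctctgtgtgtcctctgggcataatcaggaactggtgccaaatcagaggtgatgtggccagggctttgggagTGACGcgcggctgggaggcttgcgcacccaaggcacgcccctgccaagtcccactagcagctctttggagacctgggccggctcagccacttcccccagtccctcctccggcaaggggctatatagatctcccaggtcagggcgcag
Dio2: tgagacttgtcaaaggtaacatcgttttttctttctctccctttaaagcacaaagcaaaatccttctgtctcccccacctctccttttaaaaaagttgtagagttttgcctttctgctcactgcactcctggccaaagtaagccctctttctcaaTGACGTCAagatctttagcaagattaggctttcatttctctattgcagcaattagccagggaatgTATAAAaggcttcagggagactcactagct
Tmem26: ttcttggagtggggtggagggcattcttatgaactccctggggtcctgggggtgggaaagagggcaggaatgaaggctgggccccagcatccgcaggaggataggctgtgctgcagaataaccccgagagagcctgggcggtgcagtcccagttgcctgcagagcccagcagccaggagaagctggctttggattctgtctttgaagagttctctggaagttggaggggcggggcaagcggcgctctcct
The full element TGACGTCA lay 95 to 88 bases before the Dio2 start, and 1.62% of the 27025 RefSeq promoters of this length hold it. The core TGACG lay 147 to 143 bases before the Ucp1 start, and 17.9% of the promoters hold it. Dio2 also had TATAAA 30 to 25 bases before its start, which 13% of the promoters hold. The Tmem26 window held none of these letters and 1 E-box, CANNTG, at 101 to 96 bases, a motif in 66% of the promoters. The motif TCAAGGTCA of the estrogen-related receptors, partners of the PGC-1 coactivators, was in none of the 3 windows (0.366% of the promoters hold it). These matches describe the letters of the windows and were not tied to the levels by any test.

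Cidea (ENSMUSG00000024526, chromosome 18, 67343604 to 67367785), a lipid droplet protein abundant in brown adipocytes, was at 18.7, 37.7 and 57.6 CPM in the lowest, median and highest AAV-GFP mouse and at 35.9, 64.6 and 153 CPM in AAV-Notum mice. In 4 of 6 AAV-Notum mice Cidea was above every AAV-GFP mouse. From 333 to 2486 reads in each mouse came a log2 fold change of 1.09 (SE 0.38, edgeR p = 0.0143, adjusted p = 0.242; exact permutation p = 0.0281, or 0.343 adjusted over all genes). The unadjusted edgeR p stayed between 0.00580 and 0.0423 when each mouse was left out in turn, and was 0.235 without the 5 mice of highest skeletal muscle level.

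Elovl3 (ENSMUSG00000038754, chromosome 19, 46131897 to 46135694), an elongase of very long chain fatty acids that rises in cold-exposed brown fat, was at 0 reads in AAV-GFP-2011, where 3 reads would be 0.168 CPM. The AAV-GFP median was 0.92 CPM and the highest mouse, AAV-GFP-2013, had 16.4 CPM, against 0.20, 0.54 and 4.86 CPM for the lowest, median and highest AAV-Notum mouse. The lowest and the highest level were both in AAV-GFP mice, and the AAV-Notum range lay inside theirs. The log2 fold change was -1.70 (SE 1.21, edgeR adjusted p = 0.484, exact permutation p = 0.758). It was -0.42 without AAV-GFP-2013 and -0.03 with limma-voom in place of edgeR (limma adjusted p = 0.992). Without AAV-Notum-2041 it was -2.88, with an unadjusted but not an adjusted edgeR p under 0.05.

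Fabp3 (ENSMUSG00000028773, chromosome 4, 130308595 to 130315463), a fatty acid binding protein of heart, muscle and brown fat, had 0 to 5 reads in AAV-GFP mice. In AAV-Notum mice it had 2 reads in AAV-Notum-2031 and AAV-Notum-2032, 3 in AAV-Notum-2033 and AAV-Notum-2034, 8 in AAV-Notum-2041 and 30 in AAV-Notum-2042. AAV-Notum-2042 was also the mouse of highest skeletal muscle score. With the filter lowered to 1 read in all, the log2 fold change of Fabp3 was 1.57 (SE 0.82, edgeR adjusted p = 0.523).

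Among the coregulators, Ppargc1b (ENSMUSG00000033871, chromosome 18, 61298136 to 61400431), which encodes the mitochondrial coactivator PGC-1β, had lowest, median and highest levels of 8.80, 13.3 and 24.4 CPM in AAV-GFP mice and 14.8, 19.3 and 32.2 CPM in AAV-Notum mice. The AAV-GFP mean was exceeded in 6 of 6 AAV-Notum mice, although AAV-GFP-2022 had rank 3 of all mice. Its log2 fold change was 0.58 (SE 0.25, edgeR p = 0.0396, adjusted p = 0.328; exact permutation p = 0.0541). The unadjusted edgeR p rose to between 0.0597 and 0.101 when 1 of 6 mice was left out (AAV-GFP-2011, AAV-GFP-2012, AAV-GFP-2013, AAV-GFP-2014, AAV-Notum-2041 or AAV-Notum-2042). The unadjusted edgeR p also rose to 0.0635 with RNA integrity in the model (log2 fold change 0.46) and to 0.134 with the lymphoid score as a covariate (0.41). With both AAV-GFP-2011 and AAV-GFP-2014 left out it was 0.154 (log2 fold change 0.39), and with the 5 mice of most muscle left out 0.474 (0.22).

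Ppargc1a (ENSMUSG00000029167, chromosome 5, 51454250 to 51567726), which encodes PGC-1α and is the cAMP-induced member of the pair, had lowest, median and highest levels of 12.9, 16.6 and 22.0 CPM in AAV-GFP mice and 11.5, 14.7 and 32.0 CPM in AAV-Notum mice. AAV-Notum-2042 and AAV-Notum-2041 exceeded the whole AAV-GFP group, and 3 of the others lay under it. On average the groups differed by a log2 fold change of 0.10 (SE 0.26, edgeR adjusted p = 0.837, exact permutation p = 0.981).

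Prdm16 (ENSMUSG00000039410, chromosome 4, 154316125 to 154636873), the transcriptional coregulator that commits precursors to the brown and beige fate, ran from 14.3 to 27.5 CPM (median 18.3) in AAV-GFP mice and from 9.86 to 26.0 CPM (median 17.2) in AAV-Notum mice. The highest mouse was in the AAV-GFP group, and AAV-Notum-2031 (9.86 CPM) and AAV-Notum-2034 (12.6 CPM) lay under the AAV-GFP range. Its log2 fold change was -0.13 (SE 0.23, edgeR adjusted p = 0.777, exact permutation p = 0.494).

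P2rx5 (ENSMUSG00000005950, chromosome 11, 73160421 to 73172685), an ATP-gated ion channel used as a surface marker of brown and beige adipocytes, was at 6.61 CPM in the lowest AAV-GFP mouse, at a median of 9.44 CPM and at 10.7 CPM in the highest. In AAV-Notum mice it was at 11.5, 16.3 and 23.6 CPM, so the lowest AAV-Notum mouse (AAV-Notum-2032) was above the highest AAV-GFP mouse (AAV-GFP-2022). Of the 9 genes P2rx5 was the 1 with no overlap in this direction, against 0.398% of all genes tested. The group means were 8.83 ± 1.57 and 17.3 ± 5.14 CPM (SD, n = 6 each), from 118 to 377 reads per mouse.

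P2rx5 had a log2 fold change of 0.97 (SE 0.20, edgeR adjusted p = 0.102; exact permutation p = 0.00216, or 0.198 adjusted over all genes). An exact p of 0.00216 is the smallest that 6 mice against 6 allow. By edgeR p it was 50th of all genes. With DESeq2 in place of edgeR, P2rx5 was the 1 gene of the 10 with an adjusted p under 0.05 (7.75e-04), against 0.481% of the genes with an adjusted p called higher by DESeq2. Over all alternatives run, the log2 fold change of P2rx5 lay between 0.66 and 1.07 and its adjusted p between 7.75e-04 and 0.613.

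Tmem26 (ENSMUSG00000060044, chromosome 10, 68723646 to 68782650), a membrane protein used as a marker of beige cells, had lowest, median and highest levels of 1.55, 4.82 and 7.08 CPM in AAV-GFP mice and 5.05, 6.23 and 9.50 CPM in AAV-Notum mice. The 3 lowest mice were AAV-GFP-2014, AAV-GFP-2011 and AAV-GFP-2012, and the highest was AAV-Notum-2031. The log2 fold change of 0.58 (SE 0.37, edgeR adjusted p = 0.456, exact permutation p = 0.104) was 0.17 without AAV-GFP-2011 and AAV-GFP-2014, the mice nearly without lymphoid transcripts.

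Exons of annotated genes on the opposite strand overlap those of Dio2 (100 bases), Elovl3 (10), Prdm16 (109) and Fabp3 (81 bases, from Zcchc17, with 401 to 651 reads per mouse). Whether the counting used strand is not given in the sources used here. No annotated exon of another gene overlaps those of Ucp1, Cidea, Ppargc1a, Ppargc1b, P2rx5 or Tmem26. The plot of log2 fold changes sets the estimates side by side.

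**Figure D2:**
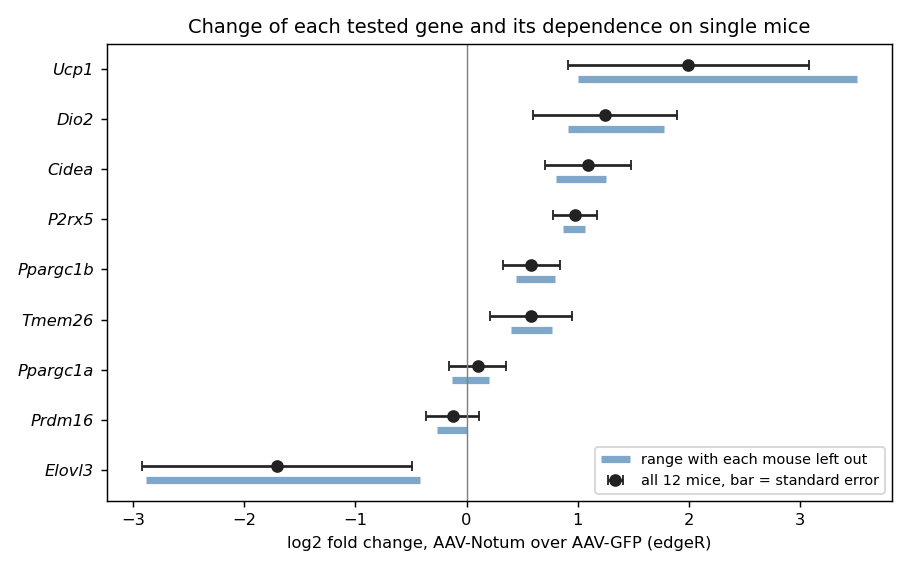
Log2 fold change of AAV-Notum over AAV-GFP for the 9 tested genes (black points, edgeR, bars are the standard error, n = 6 mice a group) and its range when each mouse is left out (blue). P2rx5 moves least (0.86 to 1.07), whereas Ucp1 (1.00 to 3.51) and Elovl3 (-2.88 to -0.42) depend on single mice and Ppargc1a and Prdm16 cross 0.

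A second question was which of these genes rise together in the same mice. Ucp1, Dio2, Cidea, Ppargc1b and P2rx5 varied together. Of the 36 pairs among the 9 tested genes, 10 had an adjusted p under 0.05 (Pearson's r of log2 CPM over 12 mice, two-sided permutation test with 100000 resamples, adjusted over the 36 pairs), and these were the 10 pairs that the 5 genes form. By Spearman's rho, 6 of the 10 passed. The 5 genes were singled out after the pairs were seen, so their count is a description. Their r ran from 0.75 to 0.92, their rho from 0.64 to 0.93, and the adjusted p from 0.00108 to 0.0210.

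The closest pair was Ucp1 and Dio2 (r = 0.92, rho = 0.93, permutation p = 4.0e-05, adjusted p = 0.00108), followed by Cidea and P2rx5 (r = 0.91, rho = 0.90, permutation p = 6.0e-05, adjusted p = 0.00108) and by Ucp1 and Cidea (r = 0.89, rho = 0.87, permutation p = 1.1e-04, adjusted p = 0.00132). Positive values were also found within groups. After centring on the group means, r of the 10 pairs was 0.65 to 0.90. Within AAV-GFP mice it was 0.54 to 0.92 and within AAV-Notum mice 0.48 to 0.95 (n = 6 each). With the 2 mice farthest from the median of the first gene of each pair left out, r was 0.54 to 0.87 and 8 of the 10 pairs kept a permutation p under 0.05. Ucp1 with Ppargc1b (r = 0.54, permutation p = 0.104) and Ucp1 with P2rx5 (r = 0.55, permutation p = 0.101) did not.

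The 5 genes shared their highest and lowest mice. AAV-Notum-2041 was first for Ucp1, Dio2 and Cidea and at rank 2 for Ppargc1b and P2rx5 (mean rank 1.4 of 12). AAV-Notum-2042 was first for Ppargc1b and P2rx5, at rank 2 for Dio2 and Cidea and at rank 3 for Ucp1 (mean rank 1.8). No other mouse was in the top 4 for all 5 genes. AAV-Notum-2034 (mean rank 4) and AAV-GFP-2022 (mean rank 4.2, from rank 2 for Ucp1 to 7 for P2rx5) followed, so an AAV-GFP mouse was among the highest. AAV-GFP-2011, the mouse with the lowest RNA integrity number (5.7, against 6.6 to 7.6 in the others), was last for all 5. AAV-Notum-2032, which had the most Notum reads in its fat, had a mean rank of 8 (from 4 for Ppargc1b to 11 for Ucp1), and AAV-Notum-2041, the other mouse with Notum above 20 CPM, of 1.4.

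**Figure D3:**
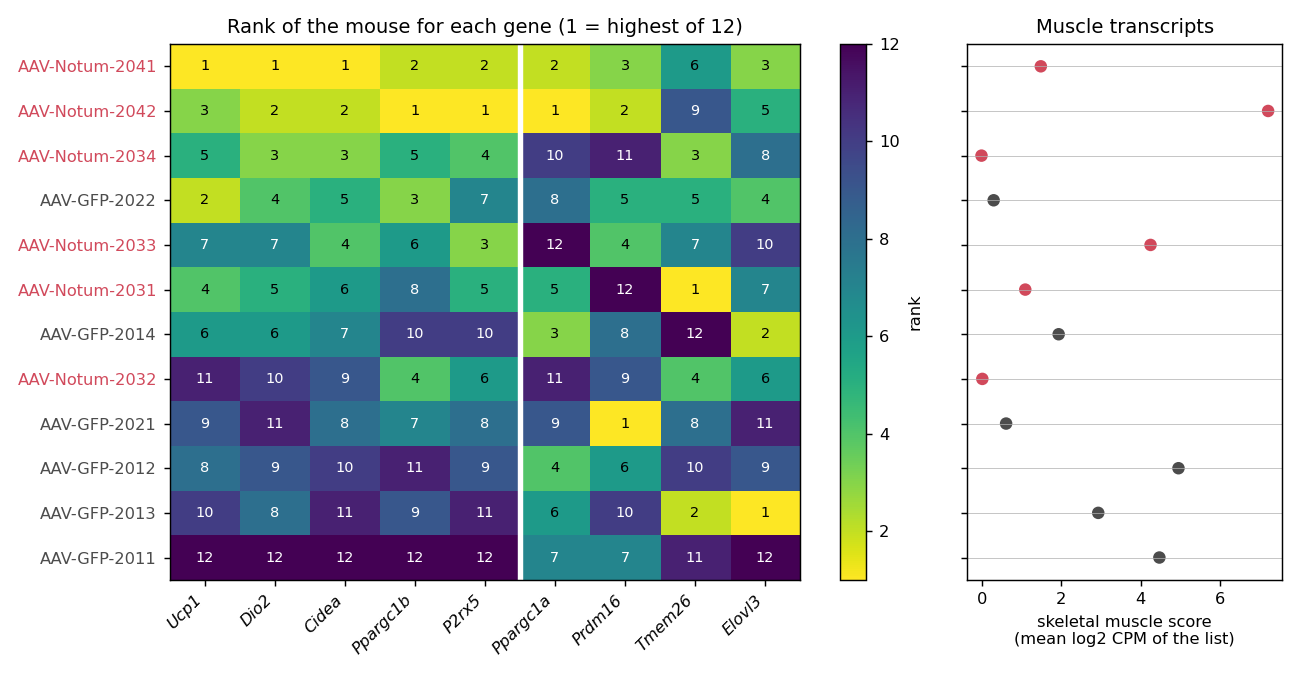
Rank of each mouse for the 9 tested genes (1 is the highest of the 12 mice, mice sorted by their mean rank over the 5 genes left of the white line), with each mouse's skeletal muscle score, the mean log2 CPM of the tested muscle genes, at the right; names and points of AAV-Notum mice are in red. For the 5 genes on the left AAV-Notum-2041 and AAV-Notum-2042 are in the top 3 and AAV-GFP-2011 is last, while other mice move between genes (AAV-Notum-2032 from rank 4 to 11).

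None of the 26 pairs that include Ppargc1a, Prdm16, Tmem26 or Elovl3 passed over the 12 mice (r from -0.30 to 0.55, adjusted p from 0.201 to 0.963 by permutation test). Centred on the group means, their r ran from -0.31 to 0.78. The highest was Prdm16 with P2rx5, at 0.78 (rho = 0.82, permutation p = 0.00364, not adjusted) against 0.26 without centring, with 0.53 within AAV-GFP and 0.86 within AAV-Notum mice. Centred Prdm16 was also at 0.58 with Cidea (permutation p = 0.0498) and at 0.58 with Ppargc1b (permutation p = 0.0480, neither adjusted), but at 0.21 with Ucp1 and 0.14 with Dio2. Elovl3 with Dio2 was at 0.66 after centring (permutation p = 0.0208, not adjusted). Ppargc1a and Ppargc1b, the related coactivators, had an r of 0.30 over all 12 mice. Their r was -0.60 without AAV-Notum-2042 and AAV-Notum-2041, the 2 mice farthest from the Ppargc1a median (permutation p = 0.0670). Ppargc1a and Prdm16 had an r of 0.35 (permutation p = 0.270), and Prdm16 and Tmem26 of -0.30 (permutation p = 0.338). Within AAV-Notum mice Prdm16 and Tmem26 had an r of -0.95 (rho = -0.94, exact permutation p = 0.00417, not adjusted) and within AAV-GFP mice of 0.08. The difference between the groups was not tested for this pair. Elovl3 had an r of 0.52 with Dio2, 0.30 with Ppargc1b and 0.05 with P2rx5. The 2 mice farthest from the Elovl3 median, AAV-GFP-2013 and AAV-GFP-2014, also had the most hepatocyte transcripts. Without them, a choice made on the level of Elovl3 itself, these values were 0.81 (permutation p = 0.00347), 0.85 (permutation p = 0.00185) and 0.68 (permutation p = 0.0294, none adjusted). Elovl3 then had an r of 0.51 with Ppargc1a, 0.17 with Prdm16 and 0.52 with Tmem26 (permutation p from 0.134 to 0.635).

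Skeletal muscle lies next to the inguinal depot, and muscle also expresses Ppargc1a, Ppargc1b and Fabp3. Myh4, the myosin heavy chain of fast glycolytic fibres, was at 1546 CPM in AAV-Notum-2042 and at 219 CPM in AAV-Notum-2033, and at 0.10 to 12.3 CPM in the other AAV-Notum mice. Over all 6 AAV-Notum mice Myh4 had a median of 8.59 CPM. In AAV-GFP mice it ran from 1.48 CPM (AAV-GFP-2022) to 325 CPM (AAV-GFP-2012), with a median of 45.5 CPM. The AAV-Notum group held 2 mice below and 1 above the whole AAV-GFP range. All 24 tested muscle genes had a higher mean in AAV-Notum mice (median log2 fold change 1.36), but 0 had an adjusted p under 0.05 and 1 an unadjusted p under 0.05, the sarcomeric actin crosslinker Actn2 (log2 fold change 1.81, edgeR adjusted p = 0.328). That direction rested on 1 library: without AAV-Notum-2042 the median was -1.07, with 3 of 25 tested muscle genes higher and 22 lower. It was -0.39 with limma-voom in place of edgeR. AAV-Notum-2042 had the highest level of Myh4 (log2 fold change 1.58, exact permutation p = 0.606), Myh1 (2.10, p = 0.989), Acta1 (1.23, p = 0.818), Ckm (1.37, p = 0.628) and Mylpf (1.40, p = 0.818). Without that mouse the 5 values were -1.07, -2.26, -1.13, -1.13 and -0.80.

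The 5 genes that varied together did not track muscle over the 12 mice. Their r with the skeletal muscle score was -0.15 for Ucp1, -6.2e-04 for Dio2, -0.05 for Cidea, -0.06 for Ppargc1b and 0.15 for P2rx5 (permutation p from 0.638 to 0.998, adjusted p of 0.998 for each over the 45 relations of 9 genes with 4 cell type scores and Myh4). Spearman's rho was -0.12, -0.10, -0.17, -0.31 and -0.10 in the same order. With Myh4 alone, r was -0.13, 0.00874, -0.07, -0.14 and 0.08. The values near 0 depended on single mice. Without AAV-Notum-2042 and AAV-GFP-2012, the mice farthest from the median muscle score, r with the score was -0.45, -0.31, -0.41, -0.57 and -0.24 (permutation p from 0.0822 to 0.510). AAV-Notum-2042, the mouse with the most muscle, was among the top 3 for all 5 genes, and AAV-GFP-2012 and AAV-GFP-2011, the next 2 for muscle, ranked 8th to 12th. AAV-Notum-2033, the next for muscle (score 4.24), was at rank 3 for P2rx5, 4 for Cidea, 6 for Ppargc1b and 7 for Ucp1 and Dio2. Among these muscle-rich mice the ranks thus went with the group.

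The sign differed by group. Within AAV-GFP mice the 5 r values with the muscle score were -0.80 (Ppargc1b, exact permutation p = 0.0472), -0.70 (Cidea), -0.68 (Ucp1), -0.58 (P2rx5) and -0.43 (Dio2). Within AAV-Notum mice they were 0.55, 0.41, 0.20, 0.70 and 0.37 in that order, with exact permutation p-values from 0.129 to 0.707 (n = 6 each). The difference between the groups was not tested.

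With the muscle score as a covariate in edgeR, the log2 fold changes were 0.95 for P2rx5 (SE 0.19, adjusted p = 0.0587), 1.10 for Cidea (adjusted p = 0.183), 0.59 for Ppargc1b (adjusted p = 0.258), 2.37 for Ucp1 (adjusted p = 0.279) and 1.27 for Dio2 (adjusted p = 0.316). Without AAV-Notum-2042 they were 0.86, 0.99, 0.44, 1.99 and 1.09. Leaving out all 5 mice with a muscle score above 2 (AAV-Notum-2042, AAV-GFP-2012, AAV-GFP-2011, AAV-Notum-2033 and AAV-GFP-2013), a choice made after seeing the data that leaves 3 AAV-GFP and 4 AAV-Notum mice, lowered all 5: to 0.66 for P2rx5 (edgeR adjusted p = 0.613), 0.60 for Cidea, 0.22 for Ppargc1b, 1.43 for Ucp1 and 0.78 for Dio2. In that setting P2rx5 was the 1 gene of the 9 with an unadjusted p under 0.05, against 1264 of the 16074 genes tested. A count of 1 gene is near that background. Leaving out these mice also removes AAV-GFP-2011, the lowest mouse for all 5 genes.

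By Pearson's r, Ppargc1a was the gene that came nearest to the muscle score (r = 0.55, rho = 0.52, permutation p = 0.0672, adjusted p = 0.396). Its r was 0.11 without AAV-Notum-2042 and AAV-GFP-2012 (permutation p = 0.771). Prdm16 had an r of 0.38 (permutation p = 0.224; rho = 0.34). Tmem26 had an r of -0.33 (permutation p = 0.288), and by rank it was the gene nearest to the score (rho = -0.58, permutation p = 0.0515, adjusted p = 0.523).

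**Figure D4:**
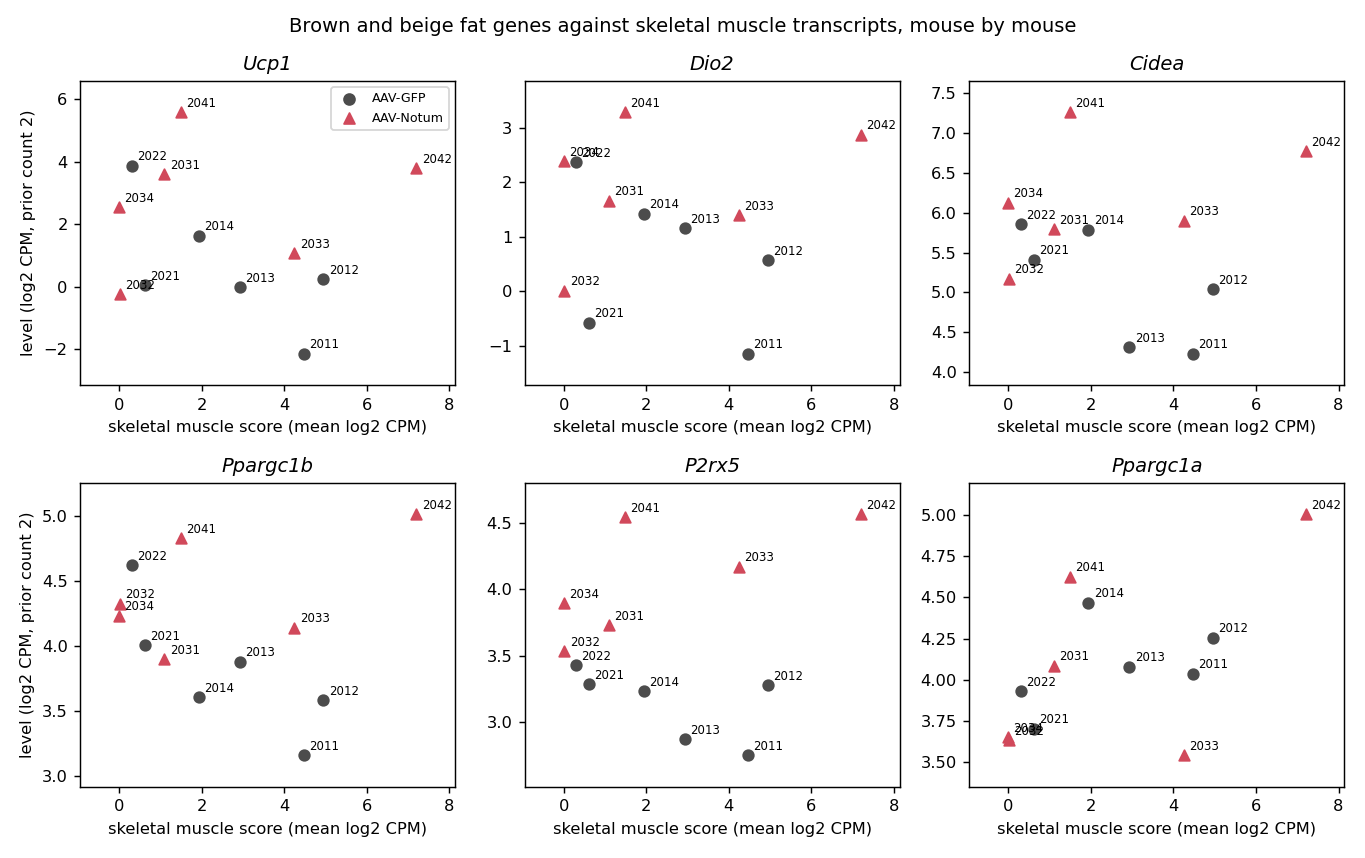
Level of 6 genes (log2 CPM, prior count 2) against the skeletal muscle score of the same mouse (mean log2 CPM of the muscle genes), AAV-GFP as grey circles and AAV-Notum as red triangles, with the mouse number beside each point. AAV-Notum-2042 is high on both axes. AAV-GFP-2011 and AAV-GFP-2012 have much muscle and low levels of Ucp1, Cidea, Ppargc1b and P2rx5. AAV-Notum-2033, with a score of 4.24, is at rank 3 for P2rx5, 4 for Cidea, 6 for Ppargc1b and 7 for Ucp1 and Dio2. AAV-Notum-2041 has high levels of all 6 genes with a score of 1.49.

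Of the 45 relations between the 9 genes and the cell type scores, 3 passed at an adjusted p under 0.05, and these concerned Elovl3 and Tmem26. None of the 5 co-varying genes passed over the 12 mice, but P2rx5 and Ppargc1b had large values within AAV-Notum mice (n = 6), none adjusted. P2rx5 had an r of 0.94 with the white adipocyte score (exact permutation p = 0.00833) and of -0.86 with the lymphoid score (exact permutation p = 0.00694), against -0.15 and 0.34 within AAV-GFP mice. Ppargc1b had an r of -0.82 with the lymphoid score (exact permutation p = 0.0347), against 0.78 within AAV-GFP mice, and of 0.14 among the 10 mice other than AAV-GFP-2011 and AAV-GFP-2014 (permutation p = 0.721). The differences between the groups were not tested. Elovl3 varied with the hepatocyte score (r = 0.86, permutation p = 4.9e-04, adjusted p = 0.0110; rho = 0.70, adjusted p = 0.208). Without AAV-GFP-2013 and AAV-GFP-2014, r was 0.67 (permutation p = 0.0345). Within AAV-GFP mice r was 0.99 (exact permutation p = 0.00139, n = 6) and within AAV-Notum mice 0.72 (exact permutation p = 0.0986, n = 6). The hepatocyte genes were lower in AAV-Notum mice as a list (12 of 12 with a lower mean, median log2 fold change -2.80, 0 with an adjusted p under 0.05), and 2 had an unadjusted p under 0.05, albumin (Alb, -2.83) and Serpina1a (-2.80). Single libraries set the size: the median was -1.17 without AAV-GFP-2013 (Alb -1.20 and Serpina1a -1.15, edgeR adjusted p = 0.491 and 0.519) and -4.72 without AAV-Notum-2041. With the hepatocyte score as a covariate, added once the data had been examined, Elovl3 had a log2 fold change of 1.41 in place of -1.70 (edgeR adjusted p = 0.370). In that fit the log2 fold changes were 2.60 for Ucp1, 1.84 for Dio2, 1.27 for Cidea, 0.70 for Ppargc1b and 1.00 for P2rx5 (edgeR adjusted p of 0.0872 to 0.287).

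Tmem26 varied with the lymphoid score and, inversely, the white adipocyte score. AAV-GFP-2011 and AAV-GFP-2014 formed a cluster of their own on the lymphoid score. Among the other 10 mice r with the lymphoid score was 0.77 (rho = 0.84, permutation p = 0.00981). With the white adipocyte score r was -0.74 over 12 mice (rho = -0.85, permutation p = 9.1e-04, adjusted p = 0.0136), -0.86 within AAV-GFP mice (exact permutation p = 0.0597, n = 6) and -0.84 within AAV-Notum mice (exact permutation p = 0.0319, n = 6). The lymphoid and white adipocyte scores were themselves opposed (rho = -0.94 over 12 mice, permutation p = 3.0e-05), so their relations to Tmem26 are not separate. With the lymphoid score as a covariate, the log2 fold change of Tmem26 was 0.0124 (SE 0.16, edgeR adjusted p = 0.993), against 0.58 without it. The 16 lymphoid genes all had a higher mean in AAV-Notum mice (median log2 fold change 0.98), with 0 at an unadjusted p under 0.05 by edgeR, a median of 0.40 without the pair of low lymphoid level and of 2.69 with limma-voom.

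**Figure D5:**
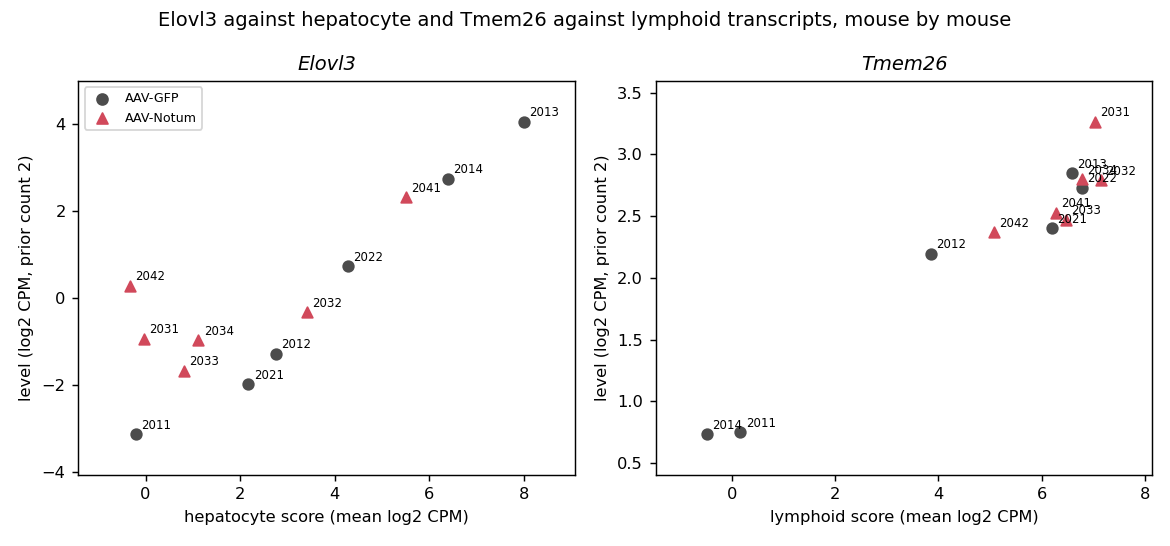
Level of Elovl3 against the hepatocyte score and of Tmem26 against the lymphoid score in each mouse (log2 CPM, prior count 2, and mean log2 CPM of each marker list), AAV-GFP as grey circles and AAV-Notum as red triangles. Elovl3 is highest in AAV-GFP-2013, the mouse with the highest hepatocyte score (8.00), and Tmem26 is lowest in AAV-GFP-2014 and AAV-GFP-2011, the mice with almost no lymphoid transcripts.

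The rest of the heat program was followed through lists of genes by role. At an unadjusted p under 0.05, 4.64% of all genes were higher and 9.54% lower in AAV-Notum mice, and 0 genes in any list below had an adjusted p under 0.05 by edgeR. Of 17 tested effectors and mitochondrial proteins of brown fat, 0 were higher and 2 lower at an unadjusted p under 0.05: the creatine transporter Slc6a8 (-0.48) and Pdk4 (-0.55), the kinase that shuts off pyruvate dehydrogenase. Their median log2 fold change was 0.09, and its sign rested on single mice: it was -0.05 without AAV-Notum-2041, 0.00499 without AAV-Notum-2042 and -0.03 without the 5 mice of highest muscle score.

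Of 15 tested transcription factors and coregulators of brown fat, 1 was higher at that level, Esrra (37.7 ± 2.94 against 45.7 ± 5.40 CPM, SD, n = 6 each; log2 fold change 0.28, exact permutation p = 0.00866), the nuclear receptor ERRα that partners with the PGC-1 coactivators. In the same list 2 were lower, Ebf2 (-0.70), a determination factor of brown precursors, and Cebpb (-0.56), an early factor of adipogenesis.

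Of the adrenergic and thyroid inputs, 11 of 12 tested genes had a lower mean in AAV-Notum mice, with a median of -0.18. The median was -0.09 without AAV-GFP-2011 and AAV-GFP-2014, the libraries of low lymphoid level, and -0.00128, with 6 genes higher and 6 lower, with the lymphoid score as a covariate. At an unadjusted p under 0.05, 3 were lower and 0 higher: the β1-adrenergic receptor Adrb1 (-0.78), the adenylyl cyclase Adcy4 (-0.63) and the thyroid hormone receptor Thrb (-0.66). Of 11 other tested beige and brown markers 0 were higher and 1 lower, Eva1a (-0.87).

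Lipogenic enzymes, which supply the fuel that beige cells burn and store, had 3 of 14 genes higher and 0 lower at an unadjusted p under 0.05. These were malic enzyme Me1 (385 ± 160 against 794 ± 354 CPM, SD, n = 6 each), the elongase Elovl6 (91.3 ± 50.7 against 240 ± 173 CPM, SD, n = 6 each) and acetyl-CoA carboxylase Acaca (log2 fold change 0.72). The list's median was 0.18 with 9 of 14 higher, 0.00357 with 7 of 14 higher without the 5 mice of highest muscle score, and 0.49 with 12 of 14 higher in the fit with the lymphoid score. Nuclear-encoded respiratory chain subunits had 4 of 81 higher and 0 lower at that level (Ndufs8, Ndufa6, Cox7a2l and Uqcrh, log2 fold changes 0.22 to 0.29), with a median of 0.12 and 70 of 81 above 0. Without AAV-Notum-2042, the mouse of most muscle, the median was 0.04 with 48 of 81 above 0, and without the 5 mice of highest muscle score it was 0.00328 with 42 of 81 above 0. In the other direction it was 0.31 with the lymphoid score as a covariate. All 7 tested mitochondrially encoded genes had a higher mean (median 0.34), with 0 at an unadjusted p under 0.05. The 13 genes of that list summed to 96362 CPM in AAV-Notum-2041 and 81684 CPM in AAV-Notum-2042, against 32232 to 43178 CPM in the other AAV-Notum mice and 29128 to 59606 CPM in AAV-GFP mice. The median was 0.11 without AAV-Notum-2041 and 0.19 without AAV-Notum-2042.

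Of 12 tested Wnt targets and inhibitors, 1 was higher, Notum (log2 fold change 4.64, from AAV-Notum-2032 and AAV-Notum-2041; exact permutation p = 0.0411), the gene the virus encodes, whose transgene and endogenous reads were not told apart, and 3 were lower at an unadjusted p under 0.05. AAV-Notum-2041 and AAV-Notum-2032 also had the highest hepatocyte scores of their group (5.50 and 3.41, against -0.34 to 1.11 in the other 4 mice). By the summed CPM of the hepatocyte markers AAV-Notum-2041 was highest (1072), but AAV-Notum-2032 (310) was below AAV-Notum-2042 (418) and AAV-Notum-2033 (355). The part of liver RNA in the Notum reads was not tested. The secreted inhibitor Sfrp5 had a log2 fold change of -2.72 (SE 0.55, edgeR adjusted p = 0.102; exact permutation p = 0.0108). Nkd1, an intracellular feedback inhibitor induced by Wnt, was at -1.04 and Sfrp1 at -0.49. Of the 14 white adipocyte genes 0 had an unadjusted p under 0.05 in either direction, and of 3 tested epithelial genes likewise 0. The white adipocyte median was -0.17, but -0.05 without the pair of low lymphoid level and 0.14, with 11 of 14 genes higher, once the lymphoid score was a covariate.

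As a description of likeness, the genes that tracked Ucp1 most closely across the 12 mice among all tested genes, by Spearman's rho, were Homer1 (0.95), a scaffold protein, and Cox8b (0.92), the cytochrome oxidase subunit of heart, muscle and brown fat. Next came Gm49376 (0.88), Xrcc6 (0.85), Clstn3 (0.84), Gm6166 (0.84), Pus10 (0.83), Gm9899 (0.82), the mitochondrial mRNA-binding protein Lrpprc (0.81) and the inner-membrane import chaperone Timm9 (0.81). Cox8b itself had a mean of 49.4 CPM in AAV-GFP and 72.1 CPM in AAV-Notum mice (log2 fold change 0.55, edgeR adjusted p = 0.386).

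The closest to P2rx5 were Vps36 (0.96), Desi1 (0.93), Fam117a (0.93), Stat5a (0.92) and Gbp10 (0.92), all with a positive log2 fold change. The closest to Elovl3 were Slc38a4 (0.94), Slc27a2 (0.92), Wdr20 (0.92), Gjb2 (0.91) and Pank1 (0.91). The amino acid transporter Slc38a4, the acyl-CoA synthetase Slc27a2 and the connexin Gjb2 are abundant in liver and had lower means in AAV-Notum mice (log2 fold changes -1.98, -2.20 and -2.03), as the hepatocyte markers did.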

How the data were processed

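RNA-seq of iWAT from 12 mice (6 AAV-GFP and 6 AAV-Notum, groups from the sample labels) was analysed. The authors isolated RNA with a Qiagen kit, made Illumina TruSeq libraries and mapped single-end 50 bp reads to mm10 with STAR 2.3.1, and the submitters' notes name FastQC and DESeq2. Raw read counts per gene were deposited by the authors without normalization. The program that counted them is not given in the sources used here. A table of normalized values deposited by the authors (log2 scale) was used as an alternative. Columns of other samples or of the authors' own comparisons were not among those used (0).

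The fit to the counts used edgeR 4.0.16 in R 4.3.3: filterByExpr (minimum count 10, minimum total 15), TMM, glmQLFit and a two-sided quasi-likelihood test of AAV-Notum against AAV-GFP, with Benjamini-Hochberg adjustment over 15585 genes and a threshold of 0.05. SE is the log2 fold change over the square root of F. Exact permutation tests used the difference of mean log2 CPM (prior count 2) over all 924 assignments of the mice. Correlations used 100000 resamples, or all orders within a group. A cell type score is the mean log2 CPM of a marker list's tested genes, without the 10 genes described. P-values measure the spread between mice, each sequenced once, so technical spread is not separated. Counting intervals were not drawn, and genes with few reads (Ucp1 from 2, Dio2 from 6, Elovl3 from 0) carry the most counting error.

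Alternatives were DESeq2 1.42.0, limma-voom (limma 3.58.1), RLE size factors, other filters on low counts, a robust fit, covariates (RNA integrity number, cell type scores), other priors, CPM on the linear scale, the deposited log2 values and leaving out each mouse in turn. The fits were tested on simulated counts. RNA was isolated 2 days after collection, and 22 days after it for AAV-GFP-2012. The genes, the lists and their members were chosen with earlier results of these data known. Named genes are the 10 genes, up to 3 genes per list and direction of smallest edgeR p among those with an unadjusted p under 0.05, 5 fixed muscle genes, Notum, and the genes of highest rho with Ucp1 (10), P2rx5 and Elovl3 (5 each). Uqcrh, the fourth of its list, and Zcchc17 were named after their values were seen. Gene positions are from GENCODE vM21 of GRCm38. Promoters are from RefSeq. Permutations and plots used Python 3.11.15 with scipy 1.17.1 and matplotlib 3.10.9.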

Additional observations from a re-analysis of the deposited data

Results flagged for a closer look

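In 24 groups of 6 mice (the 10 genes, Myh4 and Notum in each treatment), 5 had 1 mouse farther from the rest than Dixon's 95% limit allows. Chance gives such a gap in about 1 of 20 groups of normally distributed values, and CPM values are skewed. Ucp1 was at 14.5 CPM in AAV-GFP-2022, with the next AAV-GFP mouse at 2.98 CPM, and at 47.4 CPM in AAV-Notum-2041, with the next AAV-Notum mouse at 13.7 CPM. Elovl3 was at 4.86 CPM in AAV-Notum-2041, against 1.10 CPM in the next. Fabp3 was at 1.94 CPM (30 reads) in AAV-Notum-2042, against 0.492 CPM, and Myh4 at 1546 CPM in the same mouse, against 219 CPM. On log2 CPM, looked at after the data were seen, 0 of 22 groups passed the limit (Fabp3 was not included). What set these mice apart was not tested.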

How the results depend on the processing

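No paired analysis was possible because the replicate numbers of the labels name single mice and are not shared between the groups. The count of the 9 tested genes with an adjusted p under 0.05, 0 with edgeR, was 1 (P2rx5) with DESeq2, with DESeq2 without independent filtering, with the white adipocyte score as a covariate and without AAV-GFP-2022 (0 to 1 over the mice left out). For all genes the count of 8 was 436 with DESeq2 and 280 without its independent filtering, 14 with RLE size factors, 5 with a filter of 1 count, 15 with at least 10 counts in every mouse and 4 with the deposited normalized values. It was 78, 4, 910 and 31 with the muscle, lymphoid, white adipocyte and hepatocyte scores as covariates, 1 without the pair AAV-GFP-2011 and AAV-GFP-2014, then 1 to 158 when each mouse was left out (158 without AAV-GFP-2022). Without the 5 mice of highest muscle score edgeR called 0 genes, with 1264 of 16074 at an unadjusted p under 0.05. The hepatocyte covariate, the 5 mice left out and DESeq2 without filtering were chosen after seeing the data. The cause was not tested for any of these. Signs turned for Elovl3 (1.41 with the hepatocyte score), Ppargc1a (-0.13 to 0.21 over the mice left out, and -0.0149 without the 5 mice) and Prdm16 (-0.27 to 0.00396). Elovl3 stayed below 0 but nearer to it with limma-voom (-0.03), with the deposited normalized values (-0.25) and without the 5 mice (-0.80). The log2 fold changes of Ucp1, Dio2, Cidea, Ppargc1b, P2rx5 and Tmem26 kept their sign in each alternative. The near-zero correlations with the muscle score turned sign with single mice left out: from -0.33 to 0.19 for Dio2 (0.0241 centred on the groups), -0.44 to 0.11 for Cidea, -0.63 to 0.11 for Ppargc1b and -0.28 to 0.32 for P2rx5. For Ucp1 the correlation ran from -0.47 to -0.00453. No alternative moved the median log2 fold change of all genes beyond -0.0183 to 0.0177. On linear CPM the exact permutation p was 0.162 for Ucp1 and 0.762 for Ppargc1a. Depth limits Fabp3, Elovl3, Ucp1 and Dio2.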
